A study of Mus musculus with 4 samples.

Results

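Transcripts of 10 genes that are widely used to follow the epithelial to mesenchymal transition (EMT) were examined in whole mouse embryos lacking Ddx6. The genes were taken by symbol from the table of raw gene counts, which holds 24421 genes, and all 10 were found and had enough reads to be analysed. Cdh1, Epcam and Cldn6 stand for the epithelial state, Cdh2 and Vim for the mesenchymal state, and Snai1, Snai2, Zeb1, Zeb2 and Twist1 encode the transcription factors that drive the change between them.

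Epithelial cells are held to their neighbours by junctions and have an apical and a basal side, whereas mesenchymal cells lack most of these contacts and can migrate. In the mouse embryo, cells of the epiblast leave the epithelium through the primitive streak during gastrulation and become mesoderm and endoderm, and later the neural crest leaves the neural tube in a similar way. Snail-family, Zeb and Twist factors repress E-cadherin and other epithelial genes in these cells, and N-cadherin and vimentin commonly replace E-cadherin and keratins.

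All embryos were of the ICR strain and each library was made from polyadenylated RNA of whole embryos. Each library therefore mixes all cell types of the embryo with any extraembryonic or maternal tissue left on it. The study genotyped the E8.5 embryos from yolk sac or other extraembryonic tissue, and how much of it stayed in each library is not given. There was 1 wild-type library at E7.5 (E7.5 WT), 1 wild-type library at E8.5 (E8.5 WT), and 2 libraries of E8.5 embryos of genotype Ddx6 -/- (KO1 and KO2). The knockout (KO) embryos were homozygous for a germline allele from which an exon of Ddx6 is deleted, were bred by crossing heterozygotes, and carry the deletion in all tissues. KO1 pooled an embryo without head folds and an embryo that had formed them, whereas KO2 pooled only embryos without head folds. The number of embryos behind each WT library is not given in the sources used here. The study sequenced RNA to characterize the mutants and to look for possible causes of their defects. Because the 2 KO libraries varied, it then used these data only as a rough trend to guide later experiments.

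Library totals ran from 8198402 counts (KO1) to 12562640 counts (E8.5 WT). Ddx6, which encodes an RNA helicase of mRNA decay and translational repression, had 2943 reads at E7.5 and 5715 at E8.5 in WT, with 706 in KO1 and 929 in KO2, so its level was 5.52-fold lower in KO1 and 6.09-fold lower in KO2 than in E8.5 WT. KO2 stood apart by reads of trophoblast giant cell hormone genes. Prl3d1 had 4156 reads in KO2 and at most 27 in any other library. Prl8a2, a marker of the maternal decidua, had 1318 reads at E7.5 and 26 at E8.5 in WT, with 64 in KO1 and 1433 in KO2. Dcn, another marker of decidua, had 13, 23, 19 and 20 reads in the same order. All 4 libraries had reads of mesoderm and neural plate markers, but some defining markers of these tissues had few reads in E7.5 WT and KO2. Meox1 of the somites had 3 reads at E7.5 and 390 at E8.5 in WT, with 235 in KO1 and 6 in KO2.

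Levels are given as CPM, which are counts scaled to library size after trimmed mean of M-values (TMM) normalization, and a change is the difference of log2 CPM between 2 libraries. The study's threshold of 1 on the log2 scale, in either direction, was used to call a gene, and calls against a WT library were required in both KO libraries. The interval given with a change is an exact 95% binomial interval of the reads and covers counting error only. Each WT stage had 1 library, so the only spread available is that of KO1 and KO2, which includes their difference in morphological stage.

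The transcription factors of this group bind E-box words in DNA. Snail, Slug and Zeb proteins prefer CAGGTG, which reads CACCTG on the other strand. Both spellings were searched in the 250 bases before the start in each RefSeq (GRCm38.p6) promoter entry used here. These starts can differ from the gene spans given below. The window of Vim (13574061 to 13574310) and some windows of Zeb2 lie inside the span, and that of Cldn6 (23679115 to 23679364) lies partly inside it. The words were found 2 times in Epcam, 1 time in Cldn6 and 1 time in Snai1, and were not found in Vim, Twist1 or any of the 4 Zeb2 entries. Of all 32851 promoters in the table, 17.2% hold at least 1 of the words in the same window, and 66.2% hold the looser E-box CANNTG, which includes them. The windows of Epcam, the epithelial gene with the most words, and of Snai1, whose product is known to act on its own promoter, are shown with the words in capitals.
Epcam, chr17:87635729-87635978, plus strand: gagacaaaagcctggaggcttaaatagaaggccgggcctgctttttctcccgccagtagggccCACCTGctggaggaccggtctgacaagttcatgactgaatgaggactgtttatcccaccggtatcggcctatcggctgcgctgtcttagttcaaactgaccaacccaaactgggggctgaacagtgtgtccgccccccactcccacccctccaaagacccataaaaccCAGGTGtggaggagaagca
Snai1, chr2:167537945-167538194, plus strand: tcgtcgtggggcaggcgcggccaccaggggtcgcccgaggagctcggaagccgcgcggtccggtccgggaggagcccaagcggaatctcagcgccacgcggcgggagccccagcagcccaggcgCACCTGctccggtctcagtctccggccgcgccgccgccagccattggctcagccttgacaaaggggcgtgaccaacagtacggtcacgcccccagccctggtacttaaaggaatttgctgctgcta
In Epcam the words begin 187 and 19 bases before the start, and in Snai1 the word begins 126 bases before it. No promoter entry was found for Cdh1 or Snai2. A match describes the letters of the window only.

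Zeb1 and Zeb2 are also textbook targets of the miR-200 family of microRNAs (miRNAs), which are abundant in epithelia and repress both genes through their 3′ UTRs. The family is shown because DDX6 acts with the miRNA machinery. The mature sequences from RefSeq (GRCm38.p6) fall into 2 groups by their seed, bases 2 to 8, which is in capitals. The miRNAs themselves were not measured in these libraries.
mmu-miR-200b-3p: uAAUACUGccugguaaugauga
mmu-miR-200c-3p: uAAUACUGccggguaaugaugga
mmu-miR-429-3p: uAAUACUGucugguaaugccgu
mmu-miR-200a-3p: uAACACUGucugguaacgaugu
mmu-miR-141-3p: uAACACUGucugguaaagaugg
The first 3 share the seed AAUACUG, which pairs with CAGTATT in a transcript, and the last 2 share AACACUG, which pairs with CAGTGTT. The longest annotated 3′ UTRs of Zeb1 and Zeb2 each held 5 copies of CAGTATT and 4 of CAGTGTT. Among the other members, Snai2 held 1 of each, Snai1 held 1 CAGTATT, Cldn6 held 1 CAGTGTT, and Cdh1, Epcam, Cdh2, Vim and Twist1 held none. Of 20981 genes with an annotated 3′ UTR, 13.2% had at least 1 CAGTATT and 17.1% had at least 1 CAGTGTT. The 5 CAGTATT sites of Zeb2 are given from the GENCODE transcripts of GRCm38, the assembly of mm10, with the site in capitals.
Zeb2, chr2:44988173-44988194, minus strand: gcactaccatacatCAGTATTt
Zeb2, chr2:44988108-44988129, minus strand: gcactacagtgcatCAGTATTa
Zeb2, chr2:44987746-44987767, minus strand: tgaagcacccgtgtCAGTATTa
Zeb2, chr2:44987661-44987682, minus strand: ttcattaattttgtCAGTATTa
Zeb2, chr2:44987527-44987548, minus strand: catactgtagtgtaCAGTATTa

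**Figure D1:**
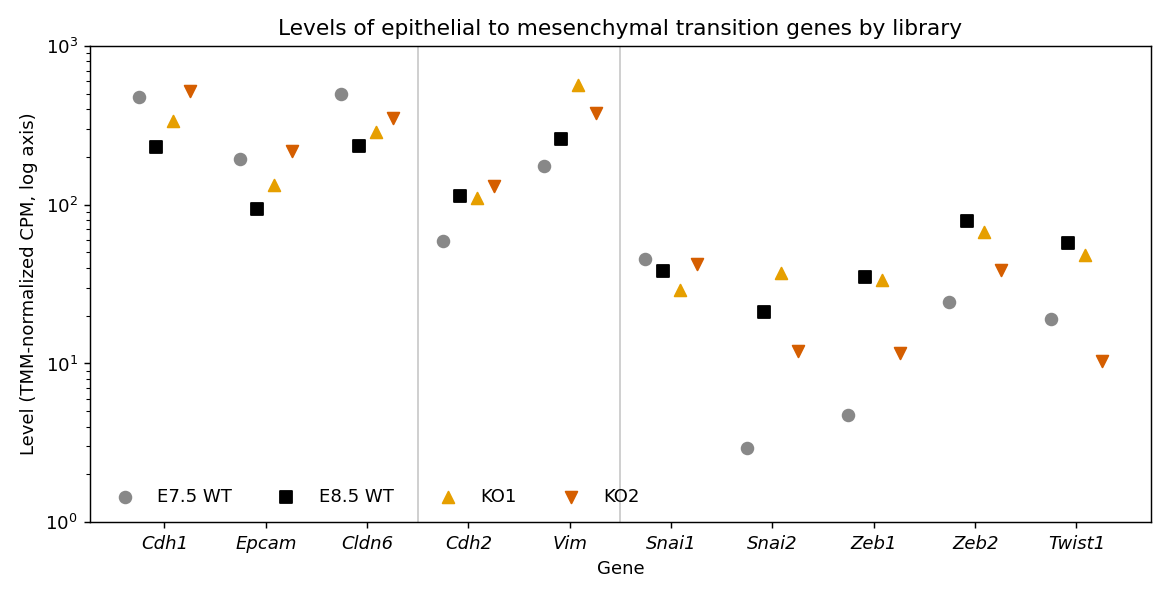
Level of each gene (TMM-normalized CPM, log axis) in the 4 libraries, with 1 point per library. Grey lines divide epithelial genes, mesenchymal genes and transcription factors, from left to right. Cdh1, Epcam and Cldn6 are lowest in E8.5 WT, Vim is highest in KO1 and KO2, and Snai2 and Zeb1 are lowest in E7.5 WT.

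The first comparison asked how the epithelial genes of the KO libraries stood against WT embryos of the same age. In KO1 and KO2 alike, all 3 epithelial members stood above E8.5 WT, more so in KO2 than in KO1. Cdh1 (chromosome 8, 106603351 to 106670246, plus strand) encodes E-cadherin, the calcium-dependent adhesion protein of epithelial adherens junctions. It had 5700 reads at E7.5 and 2828 at E8.5 in WT, with 2842 in KO1 and 6327 in KO2, or 479, 230, 338 and 519 CPM. The level was thus lowest in E8.5 WT and highest in KO2, and KO1 lay between the WT stages. Against E8.5 WT the log2 change of Cdh1 was 0.56 in KO1 (95% interval 0.48 to 0.63) and 1.17 in KO2 (1.11 to 1.24), or 1.47-fold and 2.26-fold, with a mean of 0.86 ± 0.44 (SD, n = 2).

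Epcam (chromosome 17, 87635979 to 87651129, plus strand) encodes an adhesion protein on the surface of epithelial cells. Its reads were 2306 at E7.5 and 1152 at E8.5 in WT, with 1113 in KO1 and 2661 in KO2, or 194, 93.7, 133 and 218 CPM. The order of the libraries was that of Cdh1. Its log2 change against E8.5 WT was 0.50 in KO1 (95% interval 0.38 to 0.62) and 1.22 in KO2 (1.12 to 1.32), with a mean of 0.86 ± 0.51 (SD, n = 2).

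Cldn6 (chromosome 17, 23679249 to 23682446, plus strand) encodes claudin-6, a tight junction protein of embryonic epithelia. It had 5930 reads at E7.5 and 2876 at E8.5 in WT, with 2406 in KO1 and 4263 in KO2, or 499, 234, 287 and 350 CPM. Both KO libraries lay between the WT stages. The log2 change against E8.5 WT was 0.29 in KO1 (95% interval 0.21 to 0.37) and 0.58 in KO2 (0.51 to 0.65), so neither passed the threshold.

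Over the wild-type day from E7.5 to E8.5 the same 3 genes were lower by nearly equal amounts. The log2 change of E8.5 WT against E7.5 WT was -1.06 for Cdh1 (95% interval -1.12 to -0.99), -1.05 for Epcam (-1.15 to -0.95) and -1.09 for Cldn6 (-1.16 to -1.03). Against E7.5 WT, KO2 differed little for Cdh1 (log2 change 0.12) and Epcam (0.17), and was lower for Cldn6 (-0.51). KO1 was lower than E7.5 WT for all 3, at -0.50 for Cdh1, -0.55 for Epcam and -0.80 for Cldn6.

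The 2 mesenchymal genes differed in pattern. Cdh2 encodes N-cadherin, which is found in mesoderm and in the neural plate. It had 700 reads at E7.5 and 1392 at E8.5 in WT, with 925 in KO1 and 1596 in KO2, or 58.9, 113, 110.1 and 131 CPM. E7.5 WT was the low library and the other 3 lay close to each other. Against E8.5 WT the log2 change of Cdh2 was -0.04 in KO1, with a 95% interval from -0.16 to 0.08 that includes no change, and 0.21 in KO2 (0.10 to 0.31).

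Vim (chromosome 2, 13573927 to 13582826, plus strand) encodes vimentin, the main intermediate filament protein of mesenchymal cells. Its reads were 2092 at E7.5 and 3166 at E8.5 in WT, with 4752 in KO1 and 4594 in KO2, or 176, 258, 566 and 377 CPM. Both KO libraries lay above both WT libraries, with KO1 highest. For Vim the log2 change against E8.5 WT was 1.13 in KO1 (95% interval 1.07 to 1.20) and 0.55 in KO2 (0.48 to 0.62), with a mean of 0.84 ± 0.41 (SD, n = 2). Against E7.5 WT it was 1.68 in KO1 and 1.10 in KO2. Per kilobase of transcript, Vim stood at 258 CPM in KO1, above Cldn6 at 177 and Cdh1 at 76.4, whereas in E7.5 WT Vim stood at 80.2, below Cldn6 at 307 and Cdh1 at 108.

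Vim was the only member that lay on 1 side of both WT libraries in both KO libraries. Over all 14393 genes kept, 18.4% lay above both WT libraries and 17.6% lay below both in this way. Vimentin is also made by parietal endoderm, decidual stroma and mesoderm, and their marker lists were summed in each library. The mesoderm list (8 genes) had 415 CPM at E7.5 and 633 at E8.5 in WT, with 990 in KO1 and 550.3 in KO2. The parietal endoderm list (8 genes) had 1967, 1747, 2115 and 2468 CPM, and the decidua list (8 genes) had 317, 152, 236 and 316 CPM, in the same order. Col4a1 alone gave 10817 of the 30076 parietal endoderm reads of KO2. Within that list, Thbd had 20, 56, 30 and 838 reads, whereas Stra6 had 194, 435, 187 and 97. Of the decidua reads, Prl8a2 gave 1318 of 3772 (E7.5) and 26 of 1863 (E8.5) in WT. It gave 64 of 1980 in KO1 and 1433 of 3853 in KO2, and the rest came from the other genes of the list. Hand1 is a lateral and extraembryonic mesoderm gene that trophoblast also uses. It gave 3544 of the 8317 mesoderm reads of KO1 and 4028 of the 6706 of KO2. In the same list, Meox1 had 6 reads and Aldh1a2 had 78 in KO2, beside 390 and 1723 in E8.5 WT. KO1 had a mesoderm median of 0.24 and KO2 of -1.84, as log2 change from E8.5 WT. The part of these tissues in the level of Vim was not tested, and in bulk samples a change in the number of cells of a type and a change in RNA per cell cannot be told apart.

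**Figure D2:**
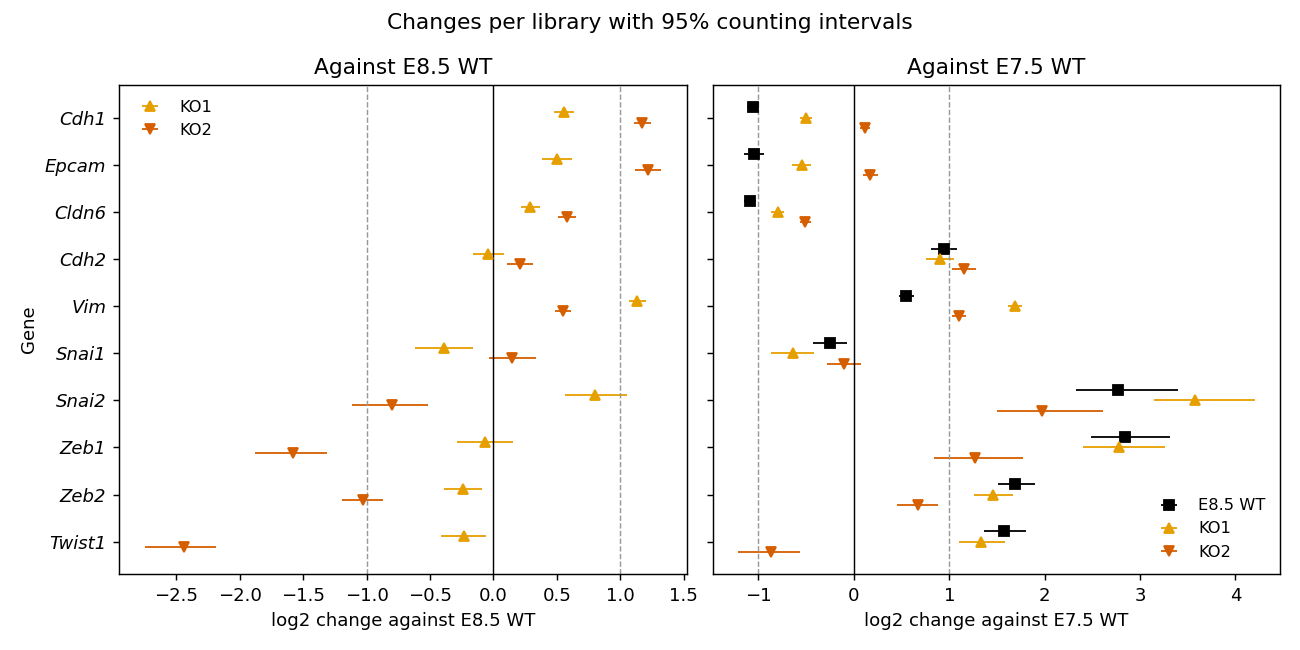
Log2 change of each gene against E8.5 WT (left) and against E7.5 WT (right), with 1 marker per library and bars for the exact 95% counting interval. Dashed lines mark the threshold of 1 in either direction. Against E8.5 WT, KO1 passes it for Vim, and KO2 passes it upward for Cdh1 and Epcam and downward for Zeb1, Zeb2 and Twist1.

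Among the transcription factors, Snai1 differed least between libraries. Snai1 (chromosome 2, 167538195 to 167542814, plus strand) encodes Snail, the repressor of E-cadherin that is needed for mesoderm cells to leave the primitive streak. It had 541 reads at E7.5 and 470 at E8.5 in WT, with 245 in KO1 and 517 in KO2, or 45.5, 38.2, 29.2 and 42.4 CPM. KO1 was the lowest library, and the other 3 lay within a narrow range. For Snai1 the log2 change against E8.5 WT was -0.39 in KO1 (95% interval -0.62 to -0.16) and 0.15 in KO2, with an interval from -0.03 to 0.33 that includes no change.

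Snai2 (chromosome 16, 14705852 to 14709385, plus strand) encodes Slug, a Snail relative that in the mouse marks neural crest and migrating mesenchyme. Its reads were 35 at E7.5 and 260 at E8.5 in WT, with 311 in KO1 and 147 in KO2, or 2.94, 21.2, 37.0 and 12.1 CPM. KO1 lay above E8.5 WT and KO2 below it, and both lay above E7.5 WT. The log2 change of Snai2 against E8.5 WT was 0.80 in KO1 (95% interval 0.57 to 1.05) and -0.80 in KO2 (-1.11 to -0.51), which gave a mean of 0.00 ± 1.13 (SD, n = 2). The mean therefore describes neither library.

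Zeb1 encodes a zinc finger repressor of E-cadherin. It had 56 reads at E7.5 and 429 at E8.5 in WT, with 280 in KO1 and 141 in KO2, or 4.71, 34.9, 33.3 and 11.6 CPM. KO1 was close to E8.5 WT and KO2 lay between the WT stages. The log2 change of Zeb1 against E8.5 WT was -0.07 in KO1 (95% interval -0.29 to 0.15) and -1.58 in KO2 (-1.88 to -1.32), the latter a 2.99-fold lower level.

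Zeb2 (chromosome 2, 44983632 to 45117395, minus strand) encodes the related repressor that migrating neural crest cells require. Its reads were 290 at E7.5 and 974 at E8.5 in WT, with 564 in KO1 and 473 in KO2, or 24.4, 79.3, 67.2 and 38.8 CPM. The libraries ranked in the same order as for Zeb1. For Zeb2 the log2 change against E8.5 WT was -0.24 in KO1 (95% interval -0.39 to -0.09) and -1.03 in KO2 (-1.19 to -0.87), so KO2 passed the threshold by a small margin.

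Twist1 (chromosome 12, 33957671 to 33959829, plus strand) encodes a basic helix-loop-helix factor of cranial mesenchyme and other mesoderm. It had 227 reads at E7.5 and 701 at E8.5 in WT, with 407 in KO1 and 126 in KO2, or 19.1, 57.0, 48.5 and 10.3 CPM. KO2 was the lowest of the 4 libraries, below E7.5 WT as well. Against E8.5 WT the log2 change of Twist1 was -0.23 in KO1 (95% interval -0.41 to -0.06) and -2.44 in KO2 (-2.75 to -2.19), a 5.44-fold lower level in KO2, and against E7.5 WT it was 1.34 in KO1 and -0.87 in KO2.

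Over the wild-type day, 4 of the 5 factors were higher at E8.5. The log2 change of E8.5 WT against E7.5 WT was 2.77 for Snai2, 2.84 for Zeb1, 1.69 for Zeb2 and 1.57 for Twist1, and it was -0.25 for Snai1. Markers of tissues that hold these factors are given beside them. The neural crest list (6 genes) summed to 45.8 CPM at E7.5 and 123 at E8.5 in WT, with 118 in KO1 and 91.5 in KO2. Within it, the defining marker Sox10 had 5, 14, 1 and 4 reads, and Pax3 had 9, 159, 57 and 13. Twist2, a close relative of Twist1 in the mesoderm list, had 10, 82, 55 and 13 reads, and the retinoic acid enzyme gene Aldh1a2 of trunk mesoderm had 80, 1723, 1385 and 78. Some other markers of these lists were not low in KO2: Foxd3 had 34, 102, 56 and 139 reads, Tfap2a had 157, 451, 389 and 521, and Hand1 had 2570, 2229, 3544 and 4028. As log2 change from E8.5 WT, the neural crest list had a median of -0.56 in KO1 and -1.09 in KO2. The part of neural crest and mesoderm in the levels of Snai2, Zeb1, Zeb2 and Twist1 was not tested.

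Counted by the threshold, no member was called against E8.5 WT in both KO libraries, where 3.44% of all genes were called higher and 1.79% lower. In KO1 alone, 1 member (Vim) was past the threshold upward and 0 downward, against 4.97% and 3.31% of all genes. In KO2 alone, 2 members (Cdh1 and Epcam) were past it upward and 3 (Zeb1, Zeb2 and Twist1) downward, against 9.41% and 5.91% of all genes. By direction alone, 4 members (Cdh1, Epcam, Cldn6 and Vim) were higher than E8.5 WT in both KO libraries and 3 (Zeb1, Zeb2 and Twist1) were lower in both, where 36.3% and 37.6% of all genes were. The median log2 change of the 10 members was 0.13 in KO1 and 0.18 in KO2, beside -0.01 and -0.00 over all genes. Both counts share the single E8.5 WT library.

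Against E7.5 WT, 3 members (Snai2, Zeb1 and Vim) were called higher in both KO libraries and 0 lower, where 6.91% and 2.70% of all genes were called. KO1 alone had 5 members past the threshold upward and 0 downward, beside 13.2% and 7.45% of all genes. KO2 alone had 4 upward and 0 downward, beside 10.9% and 4.06% of all genes. By direction alone, Cdh2, Snai2, Zeb1, Zeb2 and Vim were higher than E7.5 WT in both KO libraries, and Snai1 and Cldn6 were lower in both, where 44.0% and 38.2% of all genes were. The KO embryos were a day older than these WT embryos, so genotype and age cannot be told apart here.

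Between the WT stages themselves, 4 members (Snai2, Zeb1, Zeb2 and Twist1) were past the threshold upward and 3 (Cdh1, Epcam and Cldn6) downward at E8.5, where 12.2% and 7.82% of all genes were, with 1 library on each side. KO1 lay between the WT libraries for 7 of the 10 members and KO2 for 5, beside 39.7% and 44.4% of all genes. The 7 members of KO1 were Cdh1, Cdh2, Zeb1, Zeb2, Twist1, Epcam and Cldn6. The 5 of KO2 were Snai1, Snai2, Zeb1, Zeb2 and Cldn6.

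The KO libraries also differed from each other. KO2 was past the threshold below KO1 for 3 members (Snai2, Zeb1 and Twist1) and above it for 0, where 4.89% and 5.99% of all genes were. The log2 change of KO2 against KO1 was -1.60 for Snai2 (95% interval -1.91 to -1.33), -1.51 for Zeb1 (-1.83 to -1.23) and -2.21 for Twist1 (-2.53 to -1.94). It was 0.62 for Cdh1 and 0.72 for Epcam, so the epithelial genes were higher and these factors lower in the pool without head folds. Morphological stage and library cannot be told apart in this comparison.

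A fit across all genes (edgeR, two-sided quasi-likelihood test) found no member that passed Benjamini-Hochberg adjustment against E8.5 WT, and 0 of all genes passed. At an unadjusted p under 0.05, 2 members passed, Vim and Cdh1 (edgeR adjusted p = 0.669 for each), where 7.22% of all genes did. Both were higher in 2 of 2 KO libraries. Epcam (adjusted p = 0.669), Zeb2 (adjusted p = 0.681) and Twist1 (adjusted p = 0.757) did not pass by the same edgeR test. DESeq2 called 34 genes and no member, with adjusted p of 0.193 for Cdh1, 0.205 for Vim and 0.527 for Epcam. The deleted gene Ddx6 itself had an adjusted p of 0.193 by edgeR and 2.33e-28 by DESeq2. Against both WT libraries as 1 group, Vim was the 1 member at an unadjusted p under 0.05 (edgeR adjusted p = 0.900), where 3.93% of all genes were, and edgeR called 0 genes after adjustment and DESeq2 called 32, none of them a member.

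Shares of reads within a library need no scaling between libraries. They were not corrected for transcript length, for example 9124 bases for Zeb2 and 5801 for Zeb1. The shares therefore compare libraries, and do not give the balance of transcript numbers between genes. N-cadherin took 10.9% of the Cdh1 and Cdh2 reads in E7.5 WT (95% interval 10.2% to 11.7%), 33.0% in E8.5 WT (31.6% to 34.4%), 24.6% in KO1 (23.2% to 26.0%) and 20.1% in KO2 (19.3% to 21.0%). Both KO libraries lay between the WT stages and the 4 intervals did not overlap. Slug took 6.08% of the Snai1 and Snai2 reads in E7.5 WT (4.27% to 8.35%), 35.6% in E8.5 WT (32.1% to 39.2%), 55.9% in KO1 (51.7% to 60.1%) and 22.1% in KO2 (19.0% to 25.5%). Here KO1 lay above both WT libraries and KO2 between them.

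Zeb2 took most of the Zeb1 and Zeb2 reads in every library, at 83.8% in E7.5 WT (79.5% to 87.5%), 69.4% in E8.5 WT (66.9% to 71.8%), 66.8% in KO1 (63.5% to 70.0%) and 77.0% in KO2 (73.5% to 80.3%). The interval of KO1 overlapped that of E8.5 WT, and the interval of KO2 overlapped that of E7.5 WT. Cdh2 and Vim together took 16.7% (E7.5) and 39.9% (E8.5) of the reads of the 5 epithelial and mesenchymal members in WT, against 47.2% in KO1 and 31.8% in KO2. By this share KO1 lay above E8.5 WT, and KO2 lay between the WT stages. These intervals are exact Clopper-Pearson intervals and cover counting error, not the spread between embryos.

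**Figure D3:**
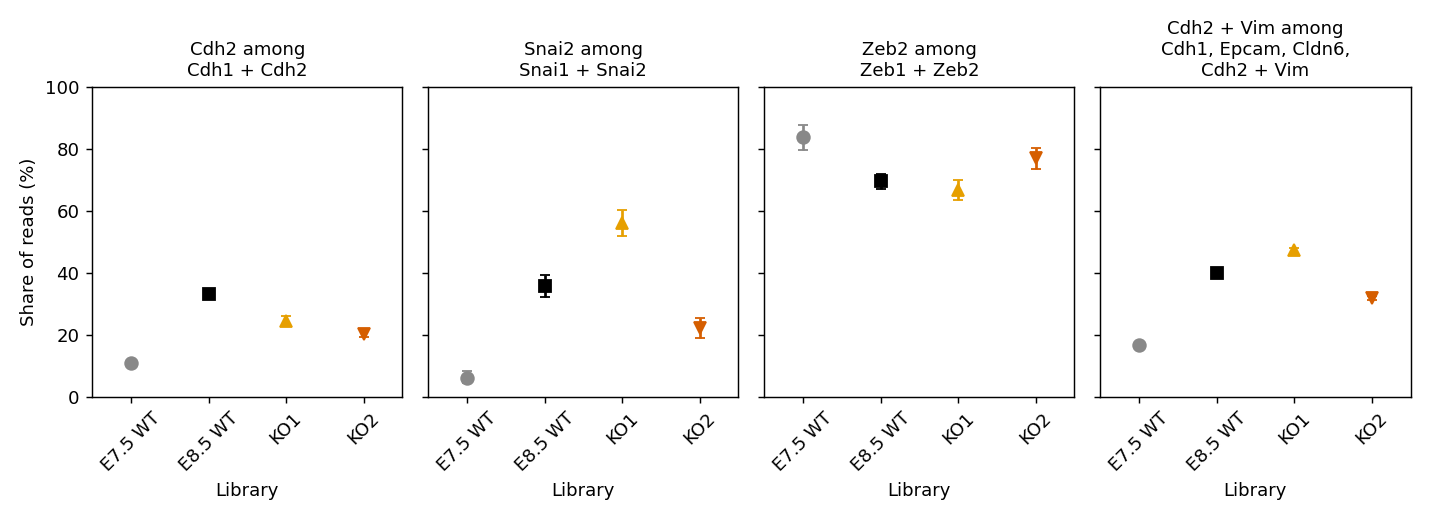
Share of reads (%) within gene groups in each library, with exact 95% binomial intervals for counting error. The share of Cdh2 among cadherin reads runs from 10.9% in E7.5 WT to 33.0% in E8.5 WT with both KO libraries between, whereas the share of Snai2 reaches 55.9% in KO1.

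The genes whose pattern over the 4 libraries was most like that of Cdh1 were sought among 11221 genes with a mean of at least 50 reads, by the root mean square difference of centred log2 CPM. Epcam was the nearest, at 0.036, followed by Cds1 (0.050), Gdap1l1 (0.056), Clybl (0.063) and Clcn2 (0.067). Epcam is the only member among these 5. Those nearest to Vim were Gas6 (0.046), Lrrc3 (0.070), Adamts4 (0.080), Mmp14 (0.081) and Mxd4 (0.085). Mmp14, a membrane-bound protease that degrades matrix, had 632 reads at E7.5 and 1036 at E8.5 in WT, with 1592 in KO1 and 1624 in KO2. With 4 libraries many genes share a pattern, and the order is a description.

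Other genes of the transition were taken from 8 lists by function. In the adherens junction list (11 genes without the classical cadherins named above, such as catenins and nectins), 0 genes were called in either direction against E8.5 WT in both KO libraries, where, as above, 3.44% of all genes were called higher and 1.79% lower. Its median log2 change was 0.18 in KO1 and 0.12 in KO2. The tight junction list (15 genes) had 1 gene called higher, Cldn3, and 0 lower, with medians of 0.24 and 0.35. Cldn3 encodes claudin-3 and had 234 reads at E7.5 and 42 at E8.5 in WT, with 78 in KO1 and 96 in KO2, and it was higher than E8.5 WT by 1.40 in KO1 and by 1.16 in KO2 on the log2 scale.

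The desmosome and simple keratin list (10 genes) had 1 gene called higher, the plakophilin gene Pkp3, and 0 lower, with medians of 0.36 in KO1 and 0.48 in KO2. Pkp3 had 178 reads at E7.5 and 89 at E8.5 in WT, with 133 in KO1 and 319 in KO2. The apical-basal polarity list (12 genes) had 0 genes called, with medians of 0.27 and 0.05. The list of epithelial transcription factors, splicing regulators and surface proteases (15 genes) had 2 called higher and 0 lower, with medians of 0.57 and 0.60.

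The called genes of the latter list were Ovol2, which encodes a repressor of the transition, and St14, which encodes the protease matriptase. Ovol2 had 55 reads at E7.5 and 14 at E8.5 in WT, with 23 in KO1 and 47 in KO2, and St14 had 1060, 384, 540 and 917. For both genes E8.5 WT was lowest and the KO libraries lay between the WT stages, as for Cldn6. Over the wild-type day, 10 of the 15 genes of this list were past the threshold downward and 0 upward, beside 7.82% and 12.2% of all genes. Set against E7.5 WT, its median log2 change was -1.26 for E8.5 WT, -0.72 for KO1 and -0.89 for KO2.

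**Figure D4:**
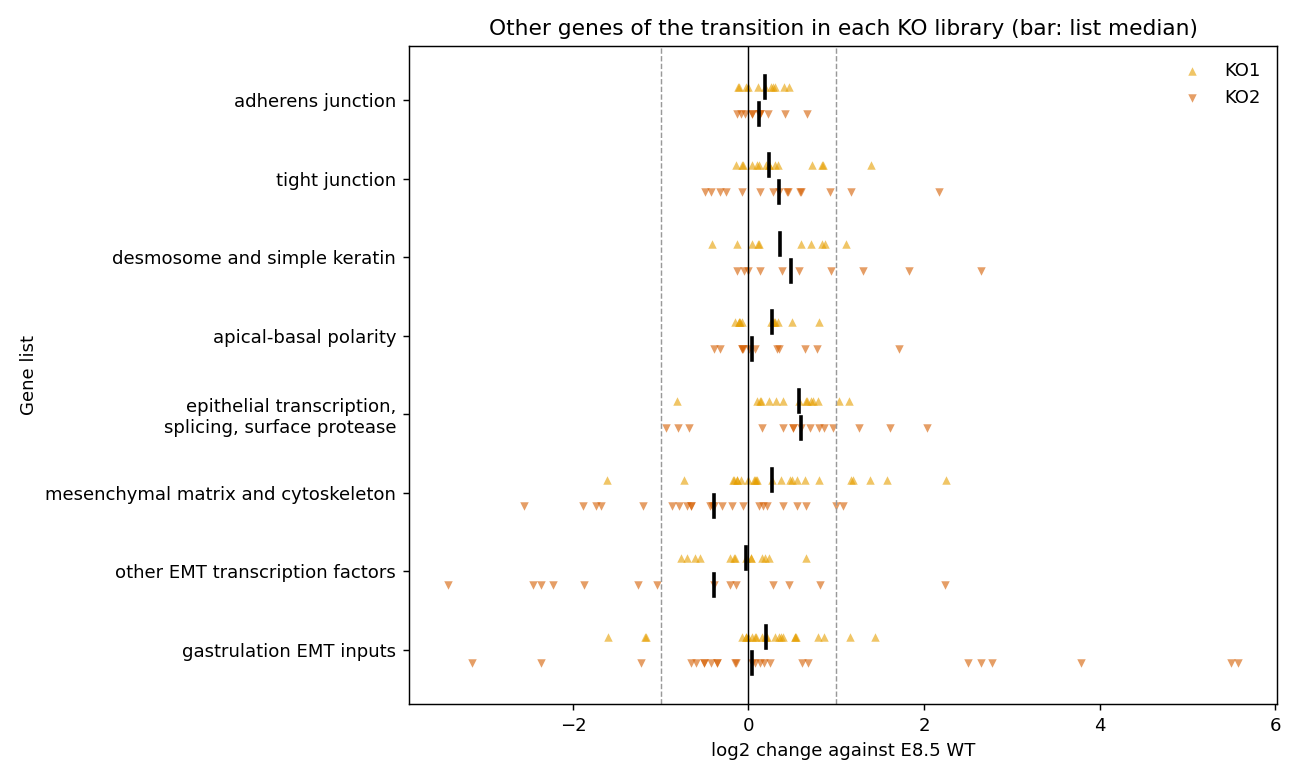
Log2 change against E8.5 WT of each gene in 8 lists of other genes of the transition, with 1 row of markers for KO1 and 1 for KO2. Black bars are list medians over all genes kept, dashed lines mark the threshold of 1, and 2 genes with 3 or fewer reads in E8.5 WT (S100a4 and Snai3) are not drawn. The medians of the mesenchymal matrix and cytoskeleton list lie on opposite sides of 0 in KO1 and KO2.

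The mesenchymal matrix and cytoskeleton list (25 genes) had median log2 changes from E8.5 WT of 0.27 in KO1 and -0.39 in KO2, so the KO libraries lay on opposite sides of it. It had 2 genes called higher, Tnc and S100a4, and 0 lower. Tnc, which encodes the matrix protein tenascin-C, had 45 reads at E7.5 and 156 at E8.5 in WT, with 246 in KO1 and 330 in KO2. S100a4 had 75, 0, 4 and 64 reads in the same order, so no fold is given for it. Over the wild-type day 15 of the 25 were past the threshold upward and 2 downward, beside 12.2% and 7.82% of all genes. Acta2, the smooth muscle actin gene, had 52 reads at E7.5 and 1229 at E8.5 in WT, with 886 in KO1 and 205 in KO2.

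Other transcription factors of the transition (15 of 16 genes had enough reads) had 0 genes called in both KO libraries, with medians of -0.03 in KO1 and -0.39 in KO2. Prrx1, a mesenchymal homeobox gene, had 25 reads at E7.5 and 302 at E8.5 in WT, with 140 in KO1 and 26 in KO2. The signals and regulators of gastrulation EMT (25 genes) had 2 genes called higher, Wnt3 and Nodal, and 1 lower, Tgfb2, with medians of 0.20 and 0.04.

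Wnt3, a signal of the early primitive streak, had 124 reads at E7.5 and 46 at E8.5 in WT, with 88 in KO1 and 325 in KO2. Nodal, which patterns the streak, had 50, 23, 37 and 155. Tgfb2, a signal that induces the transition in heart cushions, had 34, 752, 227 and 82. Eomes, a T-box factor of the streak that is needed for mesoderm cells to delaminate and is also made in trophoblast, had 1333 reads at E7.5 and 64 at E8.5 in WT, with 77 in KO1 and 3128 in KO2. In the same list and order, Tdgf1 had 300, 31, 6 and 1480 reads and Mesp1 had 570, 52, 52 and 741. Tbx6 (351, 218, 215 and 91) and Wnt3a (133, 180, 137 and 33) were lowest in KO2. By in situ hybridization, the study saw strong Eomes signal in the streak of some E8.5 KO embryos without head folds. The trophoblast list (10 genes, of which 8 had enough reads) summed to 561 CPM at E7.5 and 181 at E8.5 in WT, with 150.0 in KO1 and 576 in KO2. In that list Tpbpa had 0 reads in all libraries and Elf5 had 795, 3, 3 and 10. The part of streak and trophoblast tissue in the level of Eomes was not tested. No gene of the 8 lists passed adjustment over all genes by edgeR or DESeq2.

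Trophoblast and visceral endoderm are also epithelia that make E-cadherin. The visceral endoderm list (8 genes) summed to 6901 CPM at E7.5 and 7185 at E8.5 in WT, with 4280 in KO1 and 4082 in KO2. This sum was thus lower in both KO libraries, but its genes differed. From E8.5 WT, Apob had log2 changes of -0.89 (KO1) and -1.03 (KO2). Hnf4a had -0.07 and -0.03, and Amn had -0.18 and 0.19. Whether the amount of visceral endoderm differed was not tested. The trophoblast sum of KO2 (7016 reads) came mostly from Prl3d1 and Prl2c2 (1400 reads), whereas Esrrb had 532 reads at E7.5 and 37 at E8.5 in WT, with 22 in KO1 and 33 in KO2. The sum of E8.5 WT (2228 reads) came mostly from Cdx2 (1326 reads), which the posterior embryo also uses. From E8.5 WT, the 8 trophoblast genes kept had a median log2 change of 0.41 (KO1) and 1.34 (KO2), or 0 and 1.59 with genes at 3 or fewer reads set to that floor. From E7.5 WT it was -2.34 (KO1) and -2.28 (KO2), so the direction of this list depends on the summary and on the reference. The neural plate list (6 genes) marks an epithelium that expresses N-cadherin. It summed to 127 CPM at E7.5 and 235 at E8.5 in WT, with 153 in KO1 and 274 in KO2. Of its 3345 reads in KO2, 2059 came from Otx2 and 1174 from Sox2. Sox1 had 13 reads at E7.5 and 533 at E8.5 in WT, with 178 in KO1 and 42 in KO2. KO1 had a neural plate median of -0.75 and KO2 of -1.62, as log2 change from E8.5 WT. The sum and the median of KO2 thus lay on opposite sides of E8.5 WT. The part of these tissues in the levels of Cdh1, Epcam and Cdh2 was not tested.

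Genes with miR-200 sites were set beside Zeb1 and Zeb2. Against E8.5 WT, the median log2 change of 2055 genes kept with a CAGTATT site was -0.04 in KO1 and -0.09 in KO2, and that of 2781 genes with a CAGTGTT site was -0.03 and -0.06. Over all genes kept the medians were -0.01 and -0.00. Set beside E7.5 WT, genes with a CAGTATT site had medians of 0.35 (KO1) and 0.33 (KO2), genes with a CAGTGTT site 0.26 and 0.27, and all genes kept 0.02 and 0.07. Zeb1 was higher than E7.5 WT by 2.78 in KO1 and 1.27 in KO2 on the log2 scale. Zeb2 was higher than E7.5 WT by 1.46 and 0.67. In E8.5 WT, Zeb1 and Zeb2 were higher than in E7.5 WT by 2.84 and 1.69. Medians of the genes with sites were not taken between the WT stages. Genotype and age cannot be told apart in the changes from E7.5 WT. Whether miRNAs take part in any of these differences was not tested.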

How the data were processed

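The members and the gene lists were chosen with earlier results of these data known. Per the labels and the study's methods, libraries were made with a KAPA stranded mRNA kit, reads were trimmed with Cutadapt 2.8, inspected with FastQC 0.11.7, aligned to mm10 with HISAT2 2.1.0, handled with SAMtools 1.9, and counted over exons by strand with featureCounts 2.0.0. The authors deposited raw counts per gene without normalization, and groups were taken from the labels.

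Normalization factors (TMM, edgeR 4.0.16, R 4.3.3) were computed from the whole table of 4 libraries and were 0.983 at E7.5 and 0.978 at E8.5 in WT, with 1.02 in KO1 and 1.01 in KO2. Genes had to reach 10 counts in any library, which kept 14393. Log2 CPM used a prior count of 2, and all p-values come from fits over the genes kept. In the edgeR test against E8.5 WT only the KO libraries gave the spread, and DESeq2 1.42.0 was the alternative. P-values measure only the spread between these libraries. The steps were also run on simulated data with large changes, a smaller spread and no stage difference between KO1 and KO2. That run does not show how the tests perform on these libraries. Intervals cover counting error only, because there were no molecular identifiers and reads may be copies of 1 molecule.

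Named genes were the members, Ddx6, genes of the 8 lists called in both KO libraries, markers with the most reads in some of the marker lists, and the 5 nearest to Cdh1 and to Vim. Acta2, Aldh1a2, Amn, Cdx2, Dcn, Elf5, Eomes, Esrrb, Foxd3, Hand1, Hnf4a, Meox1, Mesp1, Pax3, Prrx1, Snai3, Sox1, Sox2, Sox10, Stra6, Tbx6, Tdgf1, Tfap2a, Thbd, Tpbpa, Twist2 and Wnt3a were partly outside this rule and chosen after their values were seen. For 6 list genes an older symbol was used. Lengths were those of the longest coding transcript in the GENCODE annotation of GRCm38, and 3′ UTRs were the longest annotated per gene. Plots used Python 3.11.15 and matplotlib 3.10.9.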

Additional observations from a re-analysis of the deposited data

How the results depend on the processing

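Other normalizations shifted the mean log2 changes of the members by at most 0.06, and the filters on low counts left them unchanged, since every member passes both. Leaving out 1 KO library leaves the value of the other, and for Twist1 against E8.5 WT the mean of -1.34 became -2.44 without KO1 and -0.23 without KO2. Of 140 mean changes recomputed, 8 changed sign, in Snai1, Snai2, Cdh1, Cdh2, Epcam and Twist1. With a minimum of 50 counts, 259 genes stood above and 130 below E8.5 WT in both KO libraries (495 and 257 before), 246 were lower than E7.5 WT (389 before), and 889 differed between the KO libraries (1566 before). With a threshold of 2, the counts were 54 and 51 against E8.5 WT, 132 and 59 against E7.5 WT with 0 members (3 before), 793 between the WT stages with 2 members (2884 with 7 before), and 447 between the KO libraries with 1 member (3 before).

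Leaving out either KO library replaces a call in both by a call in 1. The counts then ran from 716 to 1354 higher and from 476 to 850 lower than E8.5 WT, with 1 to 5 members called: 5 (Cdh1, Epcam, Zeb1, Zeb2 and Twist1) without KO1 and 1 (Vim) without KO2. Against E7.5 WT they ran from 1564 to 1893 higher and from 584 to 1072 lower, with 4 to 5 members. By edgeR, 0 genes passed against E8.5 WT, 1 with plain CPM, 7 with no filter and 34 with DESeq2. Against both WT libraries 0 passed, 32 with DESeq2, 51 without KO1 and 1 without KO2. The cause of these moves was not tested, apart from the fewer genes or libraries that some alternatives use. No paired analysis was possible because each WT stage had 1 library. Snai2 and Zeb1 are limited by depth in E7.5 WT, with 35 and 56 reads.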
